A study of Homo sapiens with 4 samples.

Results

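EMP2 and its relatives EMP1, EMP3, PMP22, PERP and TMEM47 were followed in SUM149PT cells, a line established from an inflammatory breast cancer, in which EMP2 had been knocked down. The members were chosen by symbol, 6 genes among the 25343 in the deposited table, and all 6 symbols were found there. There were 2 groups, each of 2 libraries. One was a vector control, stably infected with a lentivirus carrying a control short hairpin RNA, and the other an EMP2 knockdown, stably infected with a lentivirus carrying a hairpin against EMP2. Both groups therefore carried an integrated lentivirus and grew in the same medium with serum, insulin and hydrocortisone. Both knockdown libraries carried the same construct by their labels, so an effect of EMP2 loss and an effect of that hairpin on other transcripts cannot be told apart, and no source used here gives the hairpin's sequence. Separate cultures are not mentioned for the libraries of a group, so the spread that the p-values rest on may be technical.

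The PMP22 family consists of small proteins that cross the membrane several times and share a fold with the claudins, the strand-forming proteins of tight junctions. EMP2, epithelial membrane protein 2, is known for controlling which integrins and caveolae-associated proteins reach the cell surface, and it has been studied as an antibody target in breast and endometrial cancer. Its closest relatives are EMP1, which is abundant in squamous epithelium, EMP3, which is found in leukocytes and glioma, and PMP22, a protein of compact myelin whose gene dosage causes Charcot-Marie-Tooth neuropathy. PERP, a target of the transcription factor p63, is a component of desmosomes in stratified epithelium, and TMEM47 is a more distant relative found at cell junctions.

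The genes lie on different chromosomes. In GRCh38, with the GENCODE 29 annotation, EMP2 lies on the minus strand of chr16:10528422-10580698, EMP1 on the plus strand of chr12:13196716-13219939, EMP3 on the plus strand of chr19:48321509-48330553, PMP22 on the minus strand of chr17:15229777-15265357, PERP on the minus strand of chr6:138088505-138107511 and TMEM47 on the minus strand of chrX:34627064-34657288. Their transcripts are distinct enough for reads to be assigned. No window of 50 bases, the read length, was shared between 2 members, and between 0% (EMP1) and 9.19% (EMP3) of each member's windows recurred in a transcript of any other gene. Most of the shared EMP2 windows, 441 of 632, belong to the antisense gene AC027277.1, which covers 9.95% of EMP2's exon bases; the strand setting of the counting is not given, so reads of both strands there cannot be told apart.

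The transcripts are shown at the stretches that EMP2 has in common with its relatives, since a hairpin pairs with a short run of bases. The longest run of identical bases between an EMP2 transcript and a PMP22 transcript was 20 bases and lay in the coding part of both, at chr16:10538035-10538054 in EMP2 and chr17:15239578-15239597 in PMP22 (both minus strand). The longest run shared with EMP3, also coding in both, was 12 bases, at chr16:10538017-10538028 in EMP2. Both are printed 5′ to 3′ as DNA letters, in lower case throughout.

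EMP2 and PMP22: gtccaggccaccatgatcct
EMP2 and EMP3: cattctctgctg

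The longest runs found for EMP1 (14 bases), PERP (12 bases) and TMEM47 (16 bases) were not coding in both transcripts. For each relative, EMP3 and PMP22 included, the first run found at the greatest length was taken. Others of equal length were not looked for. Across all annotated transcripts, 2 other genes shared a stretch of 20 bases with the coding part of EMP2, PMP22 and the processed pseudogene AC011742.2, whereas 12669 shared one with an EMP2 transcript anywhere, its untranslated regions included. Since the hairpin's target site is not known, the runs describe the transcripts only.

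The libraries held between 13360907 and 14647053 reads, recovered from the normalised read counts (CPM, each library brought to a common total) that the authors had scaled by the trimmed mean of M values. The 7 epithelial markers fixed for the line (EPCAM, KRT8, KRT18, KRT19, KRT5, KRT14 and CDH1) all passed the filter, with a summed level of 4713 to 4741 CPM in the controls and 4869 to 4907 CPM in the knockdowns. Within that sum 3 were called higher (KRT8, KRT18 and CDH1) and 2 lower, against 16.6% and 16.8% of all genes tested. Those lower were KRT19, by -0.17 on the log2 scale, and KRT14, from 18.9 ± 1.82 to 8.77 ± 1.39 CPM (SD, n = 2). The call of KRT18 was lost when limma was run without an abundance trend (adjusted p = 0.0819). That of KRT19 was lost there and with quantile scaling (limma adjusted p up to 0.273). Of the markers of other cell types, SOX10 (Schwann cells) and CD3E (leukocytes) were at 0 in every library. The Schwann cell list summed to 18.5 to 18.6 CPM in the controls and 19.4 to 19.8 CPM in the knockdowns, and the leukocyte markers to 4.50 to 4.62 and 3.67 to 4.74 CPM. The endothelial list summed to 2.50 to 2.91 CPM in the controls and 2.32 to 2.44 CPM in the knockdowns. Its 1 tested gene, PECAM1, was at 2.13 ± 0.119 and 1.36 ± 0.0933 CPM (SD, n = 2) without passing, VWF was at a mean of 0.324 and 0.733 CPM, and CDH5 at 0.0346 and 0 CPM. The fibroblast list held 1 gene at 0 (COL1A2) and summed to between 114.6 and 115.0 CPM in the controls and between 87.1 and 88.1 CPM in the knockdowns, nearly all of it DCN and COL1A1. DCN fell from 72.7 ± 3.78 to 41.7 ± 1.37 CPM (SD, n = 2); the part of these markers in the results below was not tested.

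EMP2, the target of the hairpin, was measured first. The control libraries gave 126.1 and 124.6 CPM (1823 and 1645 reads), the knockdown libraries 23.0 and 22.6 CPM (321 and 302 reads). Both knockdown libraries were far below both controls and close to each other. The fall of 102.5 CPM was the largest change of any member in CPM, and the mean went from 125.3 ± 1.08 to 22.8 ± 0.288 CPM (SD, n = 2), so that 18.2% remained. Fitted on log2(CPM + 0.5), where changes of low genes come out too small, EMP2 changed by -2.43 (SE 0.051; 95% interval -2.54 to -2.32; limma adjusted p = 3.7e-15). Of the 13661 genes tested, those reaching 1 CPM in 2 or more libraries, 4 had a lower log2 change than EMP2: the readthrough locus TMEM189-UBE2V1, RGPD8, IGFBP3 and NUDT4P1. NUDT4P1 did not pass the test (limma adjusted p = 0.0963), with a mean of 29.7 CPM in the controls and 23.8 CPM in the knockdowns, and RGPD8 went from a mean of 23.1 to 8.20 CPM. Among the 11095 of them that averaged 5 CPM or more, EMP2 ranked 4. These ranks depend on the value added to the CPM. With 0.1 in place of 0.5, TP63, the gene of p63, changed by -2.70 and EMP2 by -2.45.

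**Figure D1:**
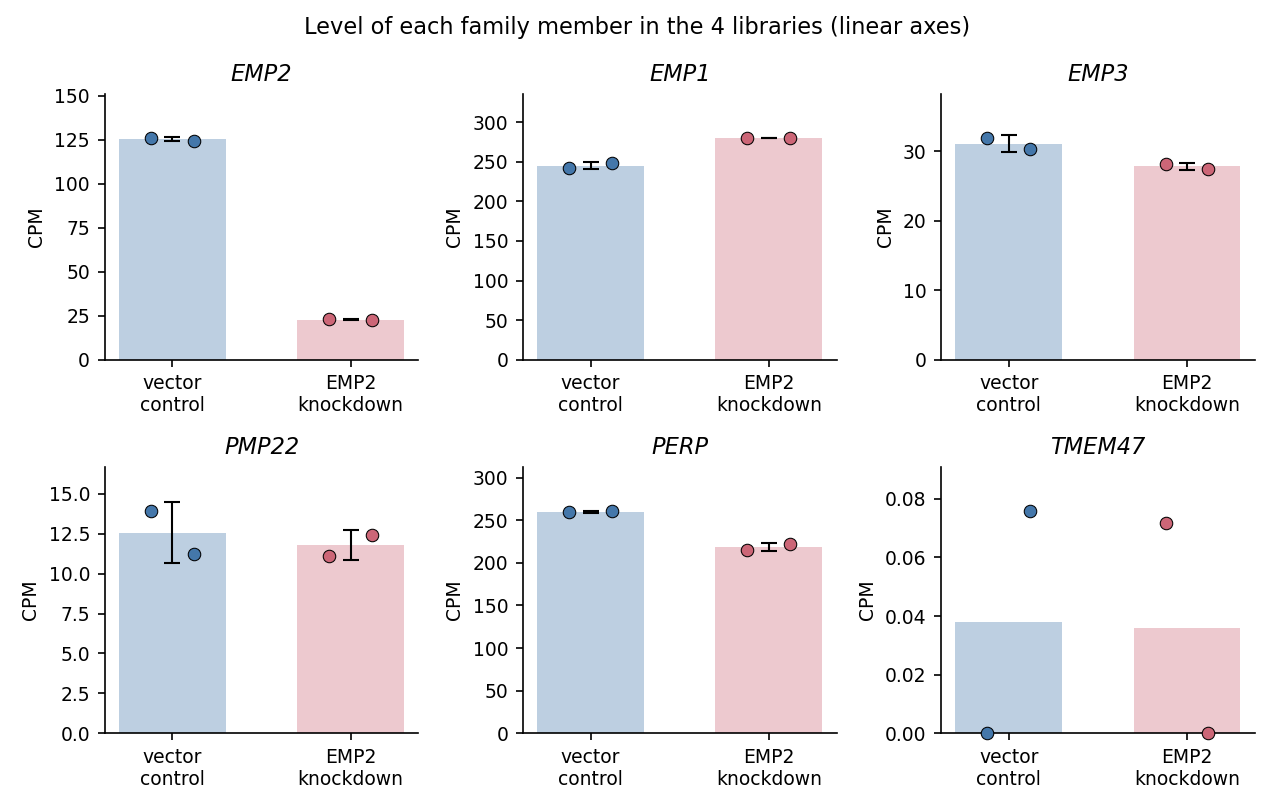
CPM of the 6 genes in the 2 vector control and 2 EMP2 knockdown libraries, each panel on its own linear axis from 0; points are libraries, bars are means and whiskers are SD (not drawn for TMEM47, at 0 or 1 read per library). EMP2 drops from about 125.3 to 22.8 CPM, EMP1 is higher and PERP lower in both knockdown libraries, and the PMP22 points of the groups overlap.

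EMP1 rose slightly and PERP fell slightly. EMP1 was at 241.9 and 247.9 CPM in the control libraries, against 280.2 and 280.0 CPM in the knockdown libraries. The knockdown libraries lay above both controls, and the mean was 14.4% higher (log2 change 0.19, SE 0.029, 95% interval 0.13 to 0.26; limma adjusted p = 7.46e-05). The call was lost when limma was run without an abundance trend (adjusted p = 0.0661), the highest adjusted p among its 14 alternatives, which started at 3.3e-05. PERP was at 259.4 and 260.6 CPM in the control libraries, against 215.7 and 222.4 CPM in the knockdown libraries. Both knockdown libraries lay below both controls, and the mean was 15.7% lower (fell by 0.25 on the log2 scale, SE 0.031, 95% interval from -0.31 to -0.18; limma adjusted p = 8.63e-06). The adjusted p of PERP ran from 4.45e-08 to 0.0467 over the same alternatives.

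Neither EMP3 nor PMP22 passed the test. The control libraries held 32.0 and 30.3 CPM of EMP3, the knockdown libraries 28.2 and 27.5 CPM. The groups did not overlap, and the log2 change was -0.16 (95% confidence interval -0.30 to -0.01, limma adjusted p = 0.0915), an interval that leaves out 0 before adjustment. The gene CCDC114, which lies on the opposite strand and shares 168 of EMP3's 50-base windows, was at 1.09 ± 0.274 and 1.10 ± 0.241 CPM (SD, n = 2), a small amount beside EMP3. PMP22, the relative with the shared run of 20 coding bases printed above, gave 13.9 and 11.2 CPM with the control hairpin, against 11.1 and 12.4 CPM with the EMP2 hairpin. The groups overlapped, and the log2 change was -0.08 (95% confidence interval -0.34 to 0.17, limma adjusted p = 0.644). In folds the interval runs from 0.791 to 1.13. With 148 to 201 reads per library PMP22 was the shallowest of the tested members. The values do not exclude a change inside that interval.

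TMEM47 was low, under 1 CPM in all 4 libraries, and was not tested. The 2 libraries of each group had 1 read between them, 0 in one and 1 in the other. All these values are under the floor of 3 reads that a zero count allows, equal to 0.208 to 0.227 CPM, which covers counting error only.

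Of the 5 members tested, 1 was called higher and 2 lower, EMP2 itself among the latter. Calls were common over the table: 33.4% of the 13661 genes tested passed at an adjusted p under 0.05, 16.6% higher and 16.8% lower. The groups did not overlap for 4 of the 5 members, and for 65.6% of all genes tested. Changes as large as that of EMP1 in either direction were seen in 38.1% of tested genes and changes as large as that of PERP in 28.7%, whereas 0.0586% of tested genes (8 genes, EMP2 included) changed at least as much as EMP2. The median log2 change of the 5 members was -0.16, against 0.0037 over all genes tested. The 5 include EMP2, the target of the hairpin, and the median is the value of EMP3, which did not pass. Changes as large as that of EMP3 were seen in 46.0% of tested genes. With DESeq2, 15.9% of genes were called, 7.27% higher and 8.65% lower, and the same 3 members passed (adjusted p = 0.000433 for EMP1, 3.58e-06 for PERP and 1.81e-147 for EMP2). With limma run without the trend 14.1% of genes were called, 6.71% higher and 7.44% lower, and EMP2 and PERP passed.

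Levels were compared between genes per kilobase (kb) of exon, with the exon bases of GENCODE's basic set (939 for EMP3 to 6633 for EMP1). In the controls PERP was the most abundant member at 60.6 ± 0.194 CPM per kb, followed by EMP1 at 36.9 ± 0.643, EMP3 at 33.1 ± 1.26, EMP2 at 23.4 ± 0.202 and PMP22 at 5.58 ± 0.847 CPM per kb (SD, n = 2). The control libraries of neighbours in that order did not overlap. In the knockdowns PERP was at 51.1 ± 1.11, EMP1 at 42.2 ± 0.0316, EMP3 at 29.7 ± 0.530, PMP22 at 5.23 ± 0.413 and EMP2 at 4.26 ± 0.0538 CPM per kb (SD, n = 2). EMP2 thus went from above PMP22 to below it in both knockdown libraries, where PMP22 stood 1.15 and 1.31 times as high. Among 12659 tested genes with an annotated length, EMP2 moved from percentile 77.4 to percentile 35.5 of the level per kb, while EMP1 stood at 85.9 and 88.2. The order of the upper members depends on the length used: with the mean length of coding transcripts EMP1 stood above PERP in all 4 libraries and EMP2 above EMP3 in the controls, while PMP22 stayed above EMP2 in the knockdowns, 1.12 times as high.

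EMP1, EMP2, EMP3 and PMP22 were also added up, to set the fall of EMP2 beside the changes of its closest relatives. The control libraries summed to 413.9 and 414.0 CPM, the knockdown libraries to 342.6 and 342.5 CPM. It was thus 17.2% lower in the knockdowns, and 17.8% lower per kb, with a gap between groups far wider than that within them. With 2 libraries against 2 the exact two-sided permutation test cannot go below p = 0.333, the value it gave here. The rise of EMP1 amounted to 34.3% of the fall of EMP2 in CPM and to 27.7% of it per kb. EMP2 made up 30.5% and 30.1% of the summed CPM in the controls and 6.72% and 6.61% in the knockdowns, while EMP1 went from 59.2% to 81.8% on average. EMP1 was therefore the main transcript of the set in every library by CPM, with EMP2 at 0.521 and 0.502 of its CPM in the controls and at 0.0822 and 0.0808 in the knockdowns.

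**Figure D2:**
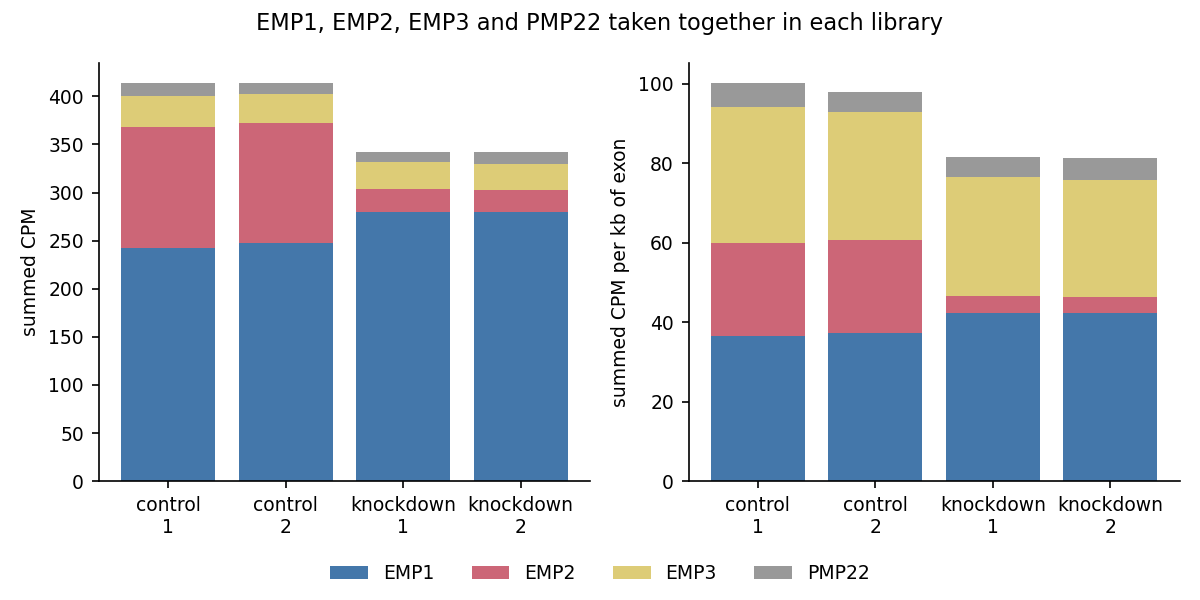
Summed level of EMP1, EMP2, EMP3 and PMP22 in each library, in CPM (left) and in CPM per kb of exon (right); each bar is 1 library and the colours are the genes. The EMP2 segment shrinks in both knockdown libraries and the EMP1 segment grows by less, so the sum falls from about 413.9 to 342.6 CPM.

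The promoters of EMP1 and PERP are shown because these are the relatives that passed the test, in opposite directions. Both are from RefSeq (GRCh38.p14), with 250 bases before and 50 after the RefSeq start of the gene, 5′ to 3′ on the gene's own strand: chr12:13196476-13196775 (plus strand) for EMP1 and chr6:138107370-138107669 (minus strand) for PERP. Capitals mark matches to the AP-1 motif TGANTCA, searched on both strands.

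EMP1: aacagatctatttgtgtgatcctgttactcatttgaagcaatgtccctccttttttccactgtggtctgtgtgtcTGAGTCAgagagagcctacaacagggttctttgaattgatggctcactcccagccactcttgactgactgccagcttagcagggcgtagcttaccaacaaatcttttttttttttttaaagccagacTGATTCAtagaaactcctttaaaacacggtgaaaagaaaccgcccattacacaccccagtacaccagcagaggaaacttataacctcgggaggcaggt
PERP: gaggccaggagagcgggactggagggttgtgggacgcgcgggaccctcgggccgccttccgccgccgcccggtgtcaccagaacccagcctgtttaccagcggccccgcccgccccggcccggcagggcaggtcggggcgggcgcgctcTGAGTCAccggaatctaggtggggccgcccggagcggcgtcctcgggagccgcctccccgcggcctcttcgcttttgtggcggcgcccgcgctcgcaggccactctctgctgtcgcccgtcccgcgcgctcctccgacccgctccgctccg

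The EMP1 promoter held 2 matches, starting 175 and 48 bases before the RefSeq start. The PERP promoter held 1, starting 101 bases before its RefSeq start. Both RefSeq starts lie inside the GENCODE spans given above, so distances from the GENCODE starts are shorter. Of the 35116 RefSeq promoters listed, 7.71% held this motif, and the promoters listed for the other 4 members held none. The motif was chosen after the sequences had been seen, and the promoters of EMP1 and PERP were chosen by their calls. The contrast with the other 4 members and with all promoters therefore follows in part from these choices. A link between the motif and the calls was not tested. Other motifs were searched as well, and some, such as the E-box, had no match in either promoter. The promoters also differ in base composition, with 44.3% G and C in EMP1 and 77.0% in PERP. GC boxes (GGGCGG, either strand), found in 45.0% of promoters, numbered 1 in EMP1 and 5 in PERP, with overlapping matches each counted.

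The wider fold family, the claudins together with LHFPL, GSG1, CACNG and related proteins, was followed through 53 genes in the table. Of these, 13 were tested and 40 were not, with no value above 0.984 CPM in any library among the latter. Of the 13 tested, 6 were higher in the knockdown (46.2%, against 16.6% of all genes tested) and 0 lower, and 11 had a log2 change above 0, with a median of 0.41. CLDN1, a sealing claudin, rose from 2.77 and 2.57 CPM to 8.39 and 6.59 CPM (log2 change 1.33, limma adjusted p = 1.59e-05). CLDN4 rose from 42.1 and 45.2 CPM to 75.3 and 73.6 CPM (log2 change 0.76). CLDN7 rose from 145.3 and 153.5 CPM to 204.3 and 192.4 CPM (log2 change 0.41). For these claudins both knockdown libraries lay above both controls. CLDN12 rose by 0.21 on the log2 scale, a call lost without vector control replicate 2 (limma adjusted p = 0.103), without the trend (0.119) and with DESeq2 (0.146); its adjusted p over all alternatives ran from 0.00162 to 0.146. LHFPL2 rose from 23.7 ± 0.803 to 30.8 ± 0.578 CPM (SD, n = 2). CLDND1, a claudin-domain protein, was at 92.3 ± 3.71 and 90.9 ± 1.74 CPM (SD, n = 2) and did not pass. Outside the claudins the count of 2 higher was 1 without vector control replicate 1 or EMP2 knockdown replicate 2, and 4 without vector control replicate 2.

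**Figure D3:**
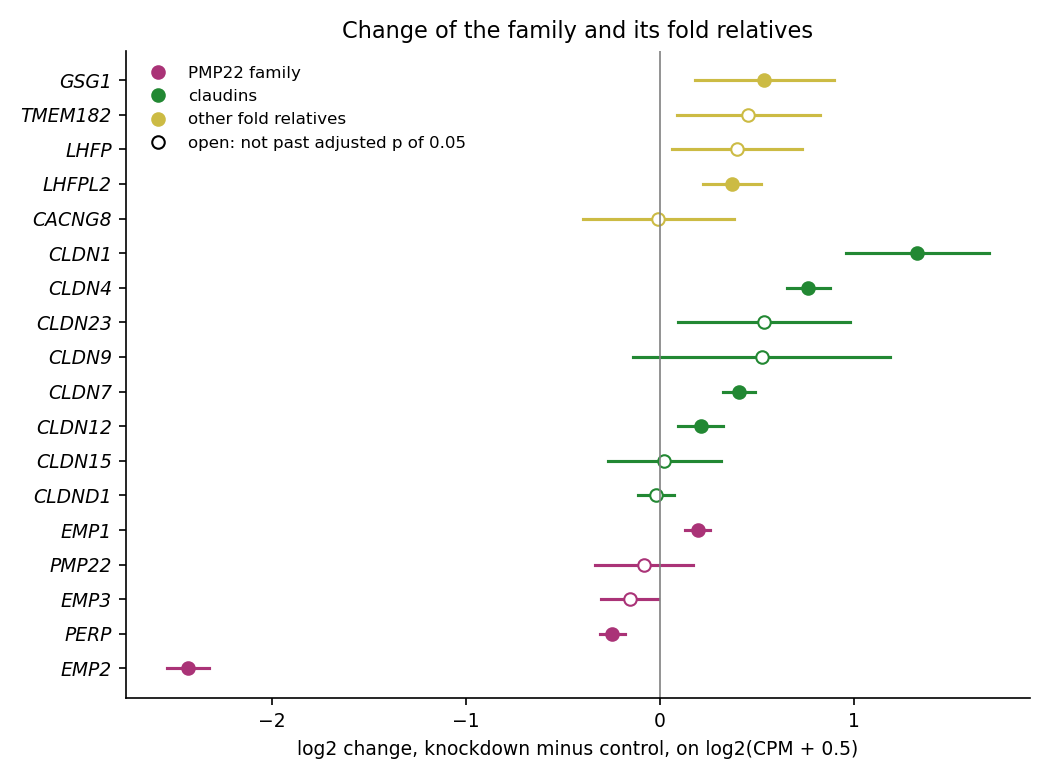
Log2 change (knockdown minus control, on log2(CPM + 0.5)) of the 5 tested PMP22 family members and 13 tested fold relatives; points are fitted changes from 2 libraries per group, lines are 95% confidence intervals and open points did not pass an adjusted p of 0.05. EMP2 stands far to the left at -2.43, while 6 of the 13 fold relatives passed on the higher side and 0 on the lower.

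Genes reported as partners of the family or in its pathway moved in both directions. Of 14 tested, 5 were higher and 5 lower, against 16.6% and 16.8% of all genes tested (median log2 change -0.03). ITGB3, the partner chain of integrin alpha-v in many cells, was at 0 CPM in all 4 libraries and was not tested. The beta chain ITGB5 was at 80.1 ± 1.27 CPM in the controls and 75.5 ± 3.65 CPM in the knockdowns (SD, n = 2) and did not pass. The alpha-v chain ITGAV rose from 159.7 and 164.0 CPM to 251.5 and 246.1 CPM (log2 change 0.62, limma adjusted p = 2.64e-10). The laminin-binding chain ITGA6 fell from 141.2 and 147.2 CPM to 83.2 and 85.0 CPM (log2 change -0.77, limma adjusted p = 2.14e-10), while its partner ITGB4, with which PMP22 has been found in a complex, was at 57.3 ± 0.343 and 58.8 ± 1.12 CPM (SD, n = 2) without passing. The beta chain ITGB1 rose by 0.25 and the angiogenic factor VEGFA fell by 0.59 on the log2 scale. The caveolar proteins CAV1 and CAV2 were lower, by -0.27 and -0.21 on the log2 scale, and the latter's call was lost without the trend (limma adjusted p = 0.0869). P2RX7, an ion channel that epithelial membrane proteins bind, was called higher by a narrow margin (log2 change 0.26, limma adjusted p = 0.0474), and 9 of its 14 alternatives lost the call. The count of partners higher was 3 without vector control replicate 1 and 2 without EMP2 knockdown replicate 2.

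TP63, which encodes p63, the regulator of stratified epithelium that acts on PERP, fell steeply, and most desmosome genes that passed the test were higher. The control libraries gave 9.89 and 8.41 CPM for TP63 and the knockdown libraries 1.29 and 1.35 CPM (log2 change -2.40, limma adjusted p = 2.81e-08). Both knockdown libraries were far below both controls, and the call held under all 14 alternatives. Of 10 desmosome genes tested, 5 were higher and 1 lower, against 16.6% and 16.8% of all genes tested, with a median log2 change of 0.13. The desmocollin DSC2 rose from 92.8 and 100.3 CPM to 125.5 and 122.0 CPM (log2 change 0.36), and JUP, DSG3 and DSG2 rose by 0.15, 0.18 and 0.11. The member called lower was the plakophilin PKP3 (log2 change -0.14). With limma run without the trend the desmosome counts were 1 higher and 0 lower, against 6.71% and 7.44% of all genes. The calls of PKP3 and DSG2 were lost without vector control replicate 1. That of PKP2, also counted as higher, was lost with DESeq2 and without EMP2 knockdown replicate 1.

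**Figure D4:**
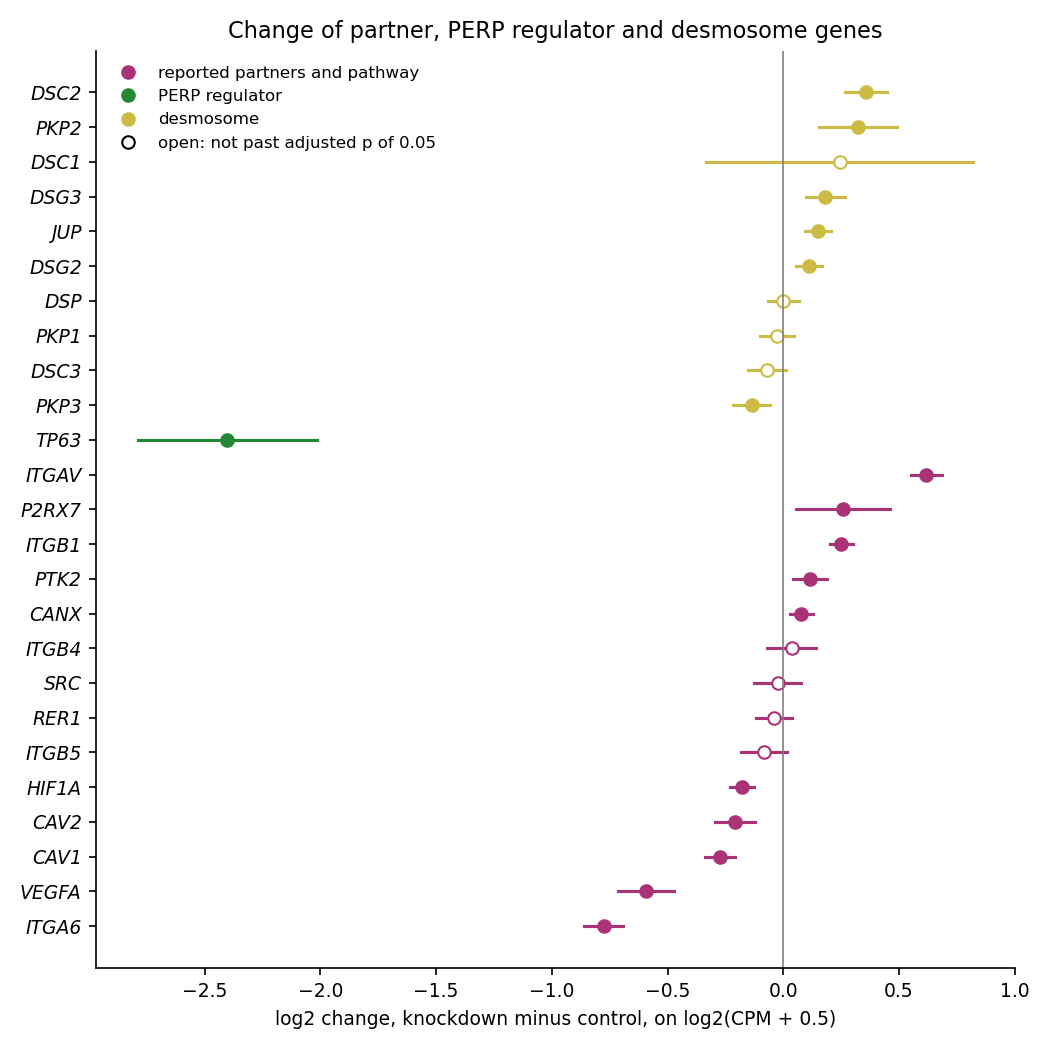
Log2 change (knockdown minus control, on log2(CPM + 0.5)) of the tested partner and pathway genes, TP63 and the desmosome genes; points are fitted changes from 2 libraries per group, lines are 95% confidence intervals and open points did not pass an adjusted p of 0.05. TP63 stands apart at -2.40, ITGAV and ITGA6 lie at 0.62 and -0.77, and the desmosome genes called lie between -0.14 for PKP3 and 0.36 for DSC2.

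By the shape of its profile over the 4 libraries EMP2 was most like TP63. Among 11094 other genes that averaged 5 CPM or more, the Euclidean distance between centred log2(CPM + 0.5) values was 0.156 for TP63, 0.374 for the interferon-induced gene IFI6, 0.378 for NDRG1, 0.456 for the noncoding RNA LINC00968 and 0.590 for the carboxylesterase CES1. With 2 groups of 2 libraries this measure mostly reflects the size of the difference between the groups. For low genes such as TP63 that size depends on the value added to the CPM. With 0.1 added TP63 changed by -2.70 and EMP2 by -2.45, and with 1 added by -2.13 and -2.41. Distances were computed with 0.5 only.

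The genes next to each member on its chromosome were read as local context. Genes that overlap a member, such as CCDC114 at EMP3, were left out. The 2 nearest on either side were taken among the tested genes placed by GENCODE 29. Of 24 such neighbours, between 1.80 and 3652 kb away, 7 were called (29.2%, against 33.4% of all genes tested), 3 higher and 4 lower; the first count was 1 without vector control replicate 1 or EMP2 knockdown replicate 2. Toward higher coordinates of EMP2, NUBP1, an iron-sulfur assembly factor 163.1 kb away, was at 20.2 ± 0.141 and 19.5 ± 1.11 CPM (SD, n = 2) and did not pass, while CIITA, the transactivator of MHC class II genes 285.5 kb away, gave 4.15 and 5.23 CPM in the control libraries, against 1.79 and 1.80 CPM in the knockdown libraries (log2 change -1.17, limma adjusted p = 0.000246). Toward lower coordinates C16orf72 was at 47.0 ± 0.00767 and 46.9 ± 0.912 CPM (SD, n = 2), and the deubiquitinase USP7, 1564 kb away, fell by 0.39 on the log2 scale. The nearest neighbour of EMP1 toward lower coordinates, 93.0 kb away, was GSG1, itself a fold relative. Its control libraries gave 3.39 and 3.79 CPM, its knockdown libraries 5.09 and 5.77 CPM (log2 change 0.54, limma adjusted p = 0.0216). That call was lost without vector control replicate 1, without EMP2 knockdown replicate 2, with no filter on low values and with DESeq2, with adjusted p values from 0.0187 to 0.255 over its alternatives.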

How the data were processed

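Per the labels' protocols, total RNA was depleted of ribosomal RNA and sequenced as single reads on an Illumina HiSeq. Tools named in the submitters' processing notes are STAR, bcl2fastq 2.17 and DESeq2, with the build GRCh38; no source used here names the counting program, annotation or strand setting. The deposited values are CPM scaled by TMM by the authors, per the file headers, for 25343 genes. This scaling would hide a change common to most mRNAs. Whole reads were recovered (100% of values within 0.1 read of a whole multiple of the library's smallest step); on them edgeR 4.0.16 called 4506 genes and DESeq2 1.42.0 called 2174. The controls differed by a chi-square of 1.64 per gene and the knockdowns by 1.62, above the 1 of counting noise, so no library was taken as a duplicate. The spread within groups beyond counting noise was small, at an edgeR biological coefficient of variation of 2.15%.

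The main test was limma 3.58.1 (R 4.3.3), two-sided and with an abundance trend, on log2 values of CPM plus a pseudocount of 0.5, Benjamini-Hochberg adjusted over the 13661 genes that reached 1 CPM in 2 or more libraries. The main test was also run on simulated counts whose spread was taken from these 4 libraries. Such counts cannot show its error rate for separate cultures. The members, lists and tests were chosen with earlier results of these data known. Named genes were the members, up to 4 called genes per list averaging 5 CPM or more by smallest adjusted p, the 5 profiles nearest to EMP2 and EMP2's neighbours; PMP22 and EMP3 stretches, CAV1, CAV2, P2RX7, ITGB3, ITGB4, CLDND1, PKP3, GSG1, CCDC114 and PECAM1, VWF, the epithelial markers and the 4 genes with a lower log2 change than EMP2 were named after their values were seen. Some genes of the lists of PERP regulators and leukocyte markers are not reported here. Lengths, positions and transcripts came from GENCODE 29, which held 12659 of the tested symbols. Alternatives were other pseudocounts, filters, scalings and tests, a replicate block, and leaving out each library.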

Additional observations from a re-analysis of the deposited data

How the results depend on the processing

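The direction and call of EMP2, PERP and EMP3 were the same under all 14 alternatives. EMP1 kept its direction (log2 change 0.19) and lost its call with limma without the trend, where the count of members higher was 0. The log2 change of PMP22, never called, turned to 0.067 without vector control replicate 1 and reached -0.23 without vector control replicate 2. Of EMP2's neighbours, the log2 change of C16orf72 turned to 0.016 with CPM without TMM and, leaving out 1 library, ran from -0.025 to 0.014, and that of NUBP1 from -0.10 to 0.0095; neither was ever called. The cause of these changes was not tested.

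Counts over all genes fell to 916 higher and 1016 lower without the trend and to 993 and 1181 with DESeq2. Without the trend the partners counted 2 higher and 3 lower and the desmosome 1 higher and 0 lower. With DESeq2 the counts were 0 higher for neighbours, 1 for fold relatives outside the claudins and 3 for partners, and 0 desmosome genes lower. With no filter they were 1, 1 and 3 higher in that order, and at a mean of at least 5 CPM 1 neighbour and 1 fold relative outside the claudins. Leaving out 1 library at a time gave 1 to 2 neighbours higher, 1 to 4 fold relatives outside the claudins, 2 to 4 partners, and 0 to 1 desmosome genes lower. The summed level of the 4 closest relatives was lower in the knockdown by -71.4 CPM, and by -65.2 CPM without TMM. The ratio of PMP22 to EMP2 per kb in the knockdown was 1.23 and, with the longest coding transcript as length, an alternative chosen after seeing the data, 1.44.

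Libraries of the same number were no more alike (correlation of deviations -0.0030), so the numbers were not taken as pairs; with the replicate block EMP1 changed by 0.19 (limma adjusted p = 0.000343) and PERP by -0.25 (limma adjusted p = 7.12e-05). PMP22 had the fewest reads of the tested members, and TMEM47 was too low to be tested.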
